A study of Mus musculus with 5 samples.

Results

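The transcripts of 10 chemokine genes, Ccl2, Ccl6, Ccl7, Ccl8, Ccl9, Ccl11, Cxcl1, Cxcl10, Cxcl14 and Cxcl16, were followed across 5 mouse white fat depots and the cell classes within them. These 10 genes were chosen by name from the 32285 genes of the count matrices, and all 10 were detected. The data are single-nucleus RNA sequencing counts, and each depot was sequenced as 1 pooled library. Subcutaneous fat (SWAT), epididymal fat (EWAT) and perirenal fat (NWAT) were each pooled from 6 mice, mesenteric fat (MWAT) from 10 mice and peri-heart fat (HWAT) from 20 mice. All animals were male, 10 weeks old, fed chow and perfused with heparin before dissection, and no genotype or treatment separates the groups. The protocol names C57BL/6J mice throughout. The strain entries differ between depots: SWAT and EWAT mice are entered as C57BL/6J wild type, HWAT mice as C57BL/9J, NWAT mice as C57BL/8J and MWAT mice as C57BL/7J. Removal of adjacent lymph nodes is described for SWAT and MWAT. With 1 library per depot there is no replicate, so depot, pool and library preparation cannot be told apart, and no test between depots was possible.

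Chemokines are small secreted proteins that guide leukocytes through G protein-coupled receptors. Inflammatory members such as Ccl2, Ccl7, Cxcl1 and Cxcl10 are induced by cytokines and microbial products, whereas homeostatic members such as Cxcl14 are made without such stimuli. In adipose tissue, Ccl2 is best known for drawing Ccr2-bearing monocytes in obesity, and Ccl11 for attracting eosinophils through Ccr3. Fat depots hold resident macrophages, fibro-adipogenic progenitors (FAPs), endothelium and, on visceral surfaces, mesothelium, and each of these cell types can secrete chemokines.

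The matrices held 76040 barcodes, and 66249 nuclei were kept after filters and doublet removal, with 11094 from SWAT, 15772 from EWAT, 16642 from MWAT, 11473 from NWAT and 11268 from HWAT. The median number of unique molecular identifiers (UMIs) per nucleus lay between 1195 in MWAT and 2568 in NWAT, and 598 barcode sequences occurred in more than 1 library. Clustering was done without any chemokine ligand or receptor gene, and 40 of 44 clusters could be named from markers. Macrophage-like nuclei numbered 1202 in HWAT, 1100 in SWAT, 1625 in EWAT, 564 in MWAT and 1142 in NWAT. FAP-like nuclei numbered between 339 in HWAT and 1076 in SWAT, and mesothelial-like nuclei between 927 in NWAT and 4089 in HWAT, with 3 in SWAT. The cells of a class were not the same clusters in every depot. HWAT macrophage-like nuclei fell mostly in a cluster led by Marco, Fcna and Prg4, and those of SWAT, EWAT and NWAT mostly in one led by F13a1, Mrc1 and Cd209f. Each depot's mesothelial-like nuclei were led by a cluster of its own or shared by EWAT and NWAT, and a cluster from mostly 1 library may be that library rather than a cell type. Transcripts of neighbouring tissues led some sub-clusters, with immunoglobulin and Scgb1a1 transcripts in HWAT, skeletal muscle transcripts in NWAT and Reg3b and Defa24 in MWAT. Their part in the depot values was not tested.

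Of the members, 7 lie on chromosome 11 (GRCm38, GENCODE vM21 annotation). Ccl2 (ENSMUSG00000035385, chr11:82035571-82037453, plus strand), Ccl7 (ENSMUSG00000035373, chr11:82045712-82047525), Ccl11 (ENSMUSG00000020676, chr11:82057823-82062955) and Ccl8 (ENSMUSG00000009185, chr11:82115185-82116799) form 1 array, with Ccl12 between Ccl11 and Ccl8. Only 8258 bp separate Ccl2 from Ccl7, and 11784 bp separate Ccl12 from Ccl8. Ccl9 (ENSMUSG00000019122, chr11:83572919-83578636, minus strand) and Ccl6 (ENSMUSG00000018927, chr11:83587882-83593087) are neighbours 9245 bp apart in a second array, and Cxcl16 (ENSMUSG00000018920, chr11:70453983-70459984, minus strand) stands alone. Cxcl1 (ENSMUSG00000029380, chr5:90891241-90893115, plus strand), Cxcl10 (ENSMUSG00000034855, chr5:92346638-92348889, minus strand) and Cxcl14 (ENSMUSG00000021508, chr13:56288643-56296551, minus strand) lie elsewhere. All 10 are protein-coding. Ccl2 lies wholly within Gm17268, Ccl6 within E230016K23Rik and Cxcl10 within Art3, each on the opposite strand, and Cxcl16 shares 552 bp with Zmynd15. Whether reads were counted by strand is not given in the sources used here, so reads of these pairs may not be separated. Members of 1 array are similar in sequence, and how reads shared between such relatives were handled was not examined.

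Promoter sequences of 300 bases, from 250 bases before to 50 bases after the transcription start, were taken from RefSeq (GRCm38.p6), where 6 of the 10 members matched. The neighbours Ccl6 and Ccl9 are shown first because both were macrophage transcripts in every depot, and capitals mark words of 10 or more bases that the pair shares.
Ccl6, chr11:83593038-83593337, minus strand: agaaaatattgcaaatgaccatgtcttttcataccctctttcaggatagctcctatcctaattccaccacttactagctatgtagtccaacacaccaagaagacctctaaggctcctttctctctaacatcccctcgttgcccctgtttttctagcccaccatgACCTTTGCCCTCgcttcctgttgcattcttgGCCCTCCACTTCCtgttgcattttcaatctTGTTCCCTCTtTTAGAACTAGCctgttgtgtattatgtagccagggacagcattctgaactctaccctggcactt
Ccl9, chr11:83578587-83578886, minus strand: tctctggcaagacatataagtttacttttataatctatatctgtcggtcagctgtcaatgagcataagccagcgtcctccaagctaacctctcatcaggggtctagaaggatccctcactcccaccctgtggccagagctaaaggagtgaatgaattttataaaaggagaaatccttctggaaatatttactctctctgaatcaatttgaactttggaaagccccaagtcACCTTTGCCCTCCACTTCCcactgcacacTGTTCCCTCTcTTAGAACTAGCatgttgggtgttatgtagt
The shared words covered 46 bases of the Ccl6 promoter and 40 bases of the Ccl9 promoter, and lay near the start site in both. The other pairs among the 6 promoters shared 0 or 10 bases in such words. Aligned end to end, Ccl6 and Ccl9 were 46.9% identical, within the 45.2% to 52.0% of the other pairs.

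Cxcl10, Cxcl1 and Ccl8 are shown for the motifs searched on both strands, an NF-kB-type motif (GGG and TTCC with 3 bases between) and an interferon-response-type motif (GAAA and GAAA with 2 bases between), since these 3 genes stood highest in single depots. Capitals mark matches.
Cxcl10, chr5:92348840-92349139, minus strand: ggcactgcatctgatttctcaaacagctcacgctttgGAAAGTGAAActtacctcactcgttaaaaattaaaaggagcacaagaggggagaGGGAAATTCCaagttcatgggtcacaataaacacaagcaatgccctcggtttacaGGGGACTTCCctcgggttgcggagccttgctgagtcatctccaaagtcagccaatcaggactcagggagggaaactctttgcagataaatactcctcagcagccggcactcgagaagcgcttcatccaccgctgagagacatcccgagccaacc
Cxcl1, chr5:90890995-90891294, plus strand: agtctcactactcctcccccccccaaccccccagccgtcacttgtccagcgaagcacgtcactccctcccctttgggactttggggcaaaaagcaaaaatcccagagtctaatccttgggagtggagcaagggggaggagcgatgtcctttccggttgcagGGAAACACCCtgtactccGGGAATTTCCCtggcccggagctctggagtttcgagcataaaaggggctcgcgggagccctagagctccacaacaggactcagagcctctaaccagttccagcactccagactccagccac
Ccl8, chr11:82114935-82115234, plus strand: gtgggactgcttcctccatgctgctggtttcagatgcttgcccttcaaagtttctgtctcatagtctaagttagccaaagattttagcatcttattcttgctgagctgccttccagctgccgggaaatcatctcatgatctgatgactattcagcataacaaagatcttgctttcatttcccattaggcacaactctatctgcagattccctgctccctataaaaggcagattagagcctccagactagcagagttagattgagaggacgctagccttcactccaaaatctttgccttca
The Cxcl10 window held an interferon-response-type match 213 bases before the start and NF-kB-type matches 159 and 104 bases before it. Cxcl1 held NF-kB-type matches 89, 71 and 70 bases before the start, of which the last 2 overlap on opposite strands. Cxcl14 also held the interferon-response-type motif, 172 bases before its start, and Ccl9 the NF-kB-type motif, 35 bases before its start. Ccl8 held neither motif and has a TATAAA word 32 bases before the start. Over 32851 RefSeq promoters of this length, 5.56% held the NF-kB-type motif, 3.44% held the interferon-response-type motif and 13.6% held TATAAA. An ETS-type word, GAGGAAG, was also searched and lay 241 bases before the Ccl8 start, and 13.6% of all promoters held it. A match describes letters only.

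Levels are given in CPM, the UMIs of a gene in all nuclei of 1 class and library, scaled to 1000000 UMIs of those nuclei, with exact 95% Poisson intervals in brackets. UMIs are counted from a 3' library, so CPM was not divided by gene length. Capture from nuclei can still differ between genes, so levels of different genes are compared only roughly. Shares of nuclei with a UMI carry exact Clopper-Pearson intervals. The intervals reflect counting error alone and say nothing of variation between mice or libraries.

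The 10 chemokines divided mainly between macrophage-like and FAP-like nuclei. By mean CPM over depots, 4 members (Ccl6, Ccl8, Ccl9 and Cxcl16) were highest in macrophage-like nuclei and 3 (Ccl7, Ccl11 and Cxcl1) in FAP-like nuclei. None was highest in mesothelial-like nuclei. Among all 16775 genes with 100 or more counts, 7.74% were highest in macrophage-like, 4.66% in FAP-like and 6.56% in mesothelial-like nuclei. The other 3 members were highest in rarer classes. Cxcl14 was highest in MWAT nuclei like interstitial cells of Cajal, a class named from markers of the pacemaker cells of gut muscle. This class joined 396 nuclei of a cluster led by Kcnq5, Kit and Esrrb, with 3 of 4 markers raised, and 109 nuclei of a cluster led by Etv1, with 4 of 4. Their Cxcl14 was not separated, so the level is not assigned to pacemaker cells. Ccl2 was highest in T or NK cell-like nuclei, where 69 of 71 counts in EWAT came from 1 nucleus, and Cxcl10 in Schwann or glial-like nuclei, where 7 counts in SWAT came from 1 nucleus and 9 of 20 counts in MWAT from another. By the median over depots, Ccl2 was highest in macrophage-like nuclei, which raised their count to 5. Ccl2, Ccl7, Cxcl1, Cxcl10 and Cxcl14 changed class under other settings, and the macrophage count was 6 with doublets removed at 1.6% per 1000 nuclei and with the mean of each nucleus's CPM. For Ccl7 and Cxcl16 the first class was close to the next. Ccl7 averaged 58.3 CPM in FAP-like and 53.4 CPM in macrophage-like nuclei, and Cxcl16 averaged 42.4 CPM in macrophage-like and 35.4 CPM in mesothelial-like nuclei.

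**Figure D1:**
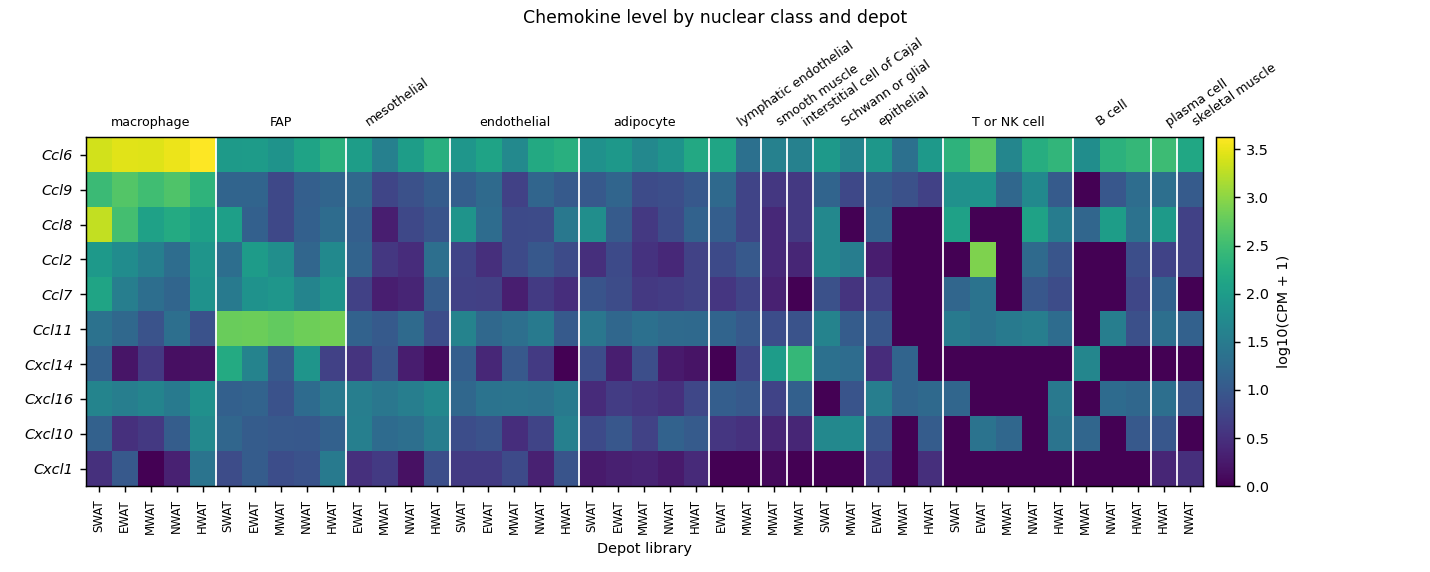
Level of the 10 chemokines (rows) as log10(CPM + 1) by colour, in each class and depot library with 50 or more nuclei (columns). Ccl6 and Ccl9 were bright in all 5 macrophage columns, Ccl8 in the SWAT one above the rest (1964 CPM), and Ccl11 in all 5 FAP columns. The bright Ccl2 cell of EWAT T or NK cell-like nuclei rests on 1 nucleus.

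Ccl6 was the most abundant of the 10. It made 44900 counts, was seen in 21.4% of all retained nuclei, and 74.4% of its counts lay in macrophage-like nuclei. Ccl6 and Ccl9 are CC chemokines of rodents that act on Ccr1, and Ccl6 is made by resting mouse macrophages. In macrophage-like nuclei Ccl6 stood at 4211 CPM in HWAT (interval 4126-4297), 3294 CPM in NWAT, 2912 CPM in EWAT, 2791 CPM in MWAT and 2414 CPM in SWAT (2343-2486). The whole span was 1.74-fold, and HWAT was 1.28-fold above NWAT (1.24-1.32). A Ccl6 UMI was found in 86.0% of macrophage-like nuclei in HWAT, 92.1% in NWAT, 86.8% in EWAT, 75.5% in MWAT and 84.5% in SWAT. Nuclei with 1000 or more UMIs were then thinned to 1000, and shallower nuclei were left out, here and for the other thinned shares. These shares lay between 77.0% and 84.8%, a narrower spread, and describe the deeper nuclei only. In MWAT, where macrophage-like nuclei had a median of 1061 UMIs, many were left out.

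Ccl9 was less abundant and ran in another order. It stood at 454 CPM in EWAT (431-478), 417 CPM in NWAT, 325 CPM in MWAT, 294 CPM in SWAT and 230 CPM in HWAT (210-251). EWAT exceeded HWAT by 1.97-fold (1.78-2.19), so HWAT was highest for Ccl6 and lowest for Ccl9. Within HWAT, Ccl6 was uneven among macrophage sub-clusters. The sub-cluster led by Marco and Vsig4, with 860 nuclei, had 5047 CPM of Ccl6, against 1097 CPM in dendritic-like nuclei, a ratio with an interval of 4.04-5.27. The same Marco type in MWAT, 59 nuclei, had 5757 CPM (5266-6281). For Ccl9, the sub-cluster led by Ear2 and Lyz1 stood at 629 CPM in NWAT, 441 CPM in EWAT and 337 CPM in MWAT. In EWAT the lipid-associated-like nuclei were higher, at 532 CPM, and the Gas6 sub-cluster stood at 456 CPM.

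Outside macrophages both genes were found at low levels in most classes. In adipocyte-like nuclei, which should lack Ccl6, the share with a Ccl6 UMI was 25.4% in HWAT (median 1885 UMIs per nucleus), 21.0% in NWAT (3203 UMIs), 17.9% in EWAT (2437 UMIs), 12.3% in SWAT (2051 UMIs) and 6.21% in MWAT (1431 UMIs). The Ccl6 level there was 1.73% to 3.67% of the macrophage level of the same depot, and the summed macrophage markers stood at 1.44% to 2.90% of theirs. Ccl9 in adipocyte-like nuclei stood at 1.54% to 3.87% of its macrophage level. Both genes in adipocyte-like nuclei thus lay near the level at which macrophage markers appeared there.

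Ccl8 showed the largest depot difference among the abundant members. Ccl8 (MCP-2) is a monocyte chemoattractant protein that in mice acts on Ccr8. In macrophage-like nuclei it stood at 1964 CPM in SWAT (1900-2029), 346 CPM in EWAT (326-367), 166 CPM in NWAT (151-183), 119 CPM in MWAT (93.8-148) and 113 CPM in HWAT (99.3-128). SWAT lay above every other library with intervals far apart, while MWAT and HWAT overlapped. SWAT exceeded EWAT by 5.67-fold (5.30-6.07) and HWAT by 17.4-fold (15.3-19.9). A Ccl8 UMI was present in 49.7% of SWAT macrophage-like nuclei, 17.2% in EWAT, 15.8% in NWAT, 8.16% in MWAT and 7.49% in HWAT. Among nuclei with at least 1000 UMIs, thinned to that depth, the shares were 43.4% in SWAT, 12.9% in EWAT, 9.73% in NWAT, 6.23% in MWAT and 5.35% in HWAT. Adipocyte-like nuclei, taken as background, had a Ccl8 UMI in 10.8% of SWAT nuclei and in 0.460% to 2.34% of nuclei of the other depots. The median depth was 1061 to 2052 UMIs in macrophage-like and 1431 to 3203 UMIs in adipocyte-like nuclei. The most Ccl8 in 1 nucleus was 92 of 3614 counts in SWAT, so no single nucleus set the level.

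SWAT was higher than EWAT in both macrophage sub-clusters with 50 or more nuclei in each of these depots. In the sub-cluster led by Gas6 and Ms4a4a, the largest in both depots, Ccl8 stood at 2644 CPM in 670 SWAT nuclei, against 686 CPM in 889 EWAT nuclei, a ratio of 3.86 (3.59-4.15). The same sub-cluster held 254 CPM in MWAT and 219 CPM in NWAT. In lipid-associated-like nuclei, marked by Gpnmb and Spp1, SWAT had 1475 CPM in 243 nuclei and EWAT had 44.7 CPM in 333 nuclei, a ratio of 33.0 (23.5-47.9). The lipid-associated level was 0.558 of the Gas6 sub-cluster's in SWAT (0.510-0.610) and 0.0651 of it in EWAT (0.0451-0.0912). Within EWAT the Gas6 sub-cluster also exceeded the Ear2 and Lyz1 one by 77.8-fold (33.2-240).

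**Figure D2:**
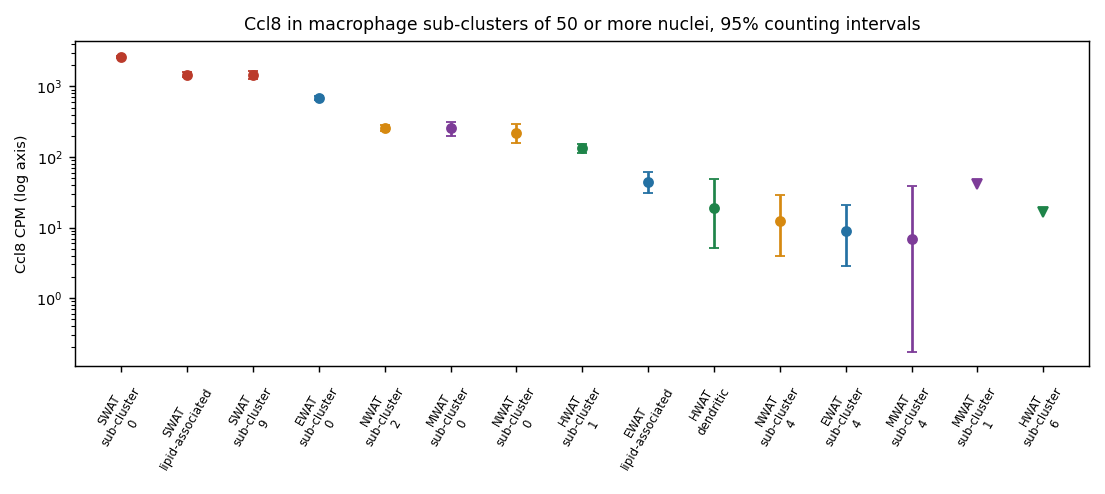
Ccl8 CPM on a log axis in each macrophage sub-cluster of 50 or more nuclei, by depot library, with exact 95% Poisson intervals. Triangles mark the upper limit where no count was seen. All 3 SWAT sub-clusters, the lowest at 1466 CPM, lay above every other depot's. EWAT stood at 686 CPM in sub-cluster 0, 44.7 CPM in its lipid-associated sub-cluster and 8.81 CPM in sub-cluster 4.

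Ccl12 (MCP-5), the gene next to Ccl8, was the gene most like it over class-by-depot sums, with a Pearson r of 0.84 over 43 sums. In macrophage-like nuclei Ccl12 stood at 129 CPM in SWAT (113-146), 78.4 CPM in HWAT, 37.5 CPM in MWAT, 24.2 CPM in EWAT and 13.7 CPM in NWAT. Unlike Ccl8, it was second highest in HWAT. In the Gas6 sub-cluster it was 3.21-fold higher in SWAT than in EWAT (2.42-4.29), and lipid-associated-like nuclei of EWAT held 2 counts of it.

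Without correction for free RNA, SWAT also had more Ccl8 than the other depots in FAP-like, adipocyte-like and endothelial-like nuclei. FAP-like nuclei had 110 CPM in SWAT (95.6-125), 18.4 CPM in HWAT, 12.1 CPM in EWAT, 11.9 CPM in NWAT and 5.13 CPM in MWAT, and SWAT was 5.97-fold above HWAT (3.09-13.2). Adipocyte-like nuclei had 61.7 CPM in SWAT and 12.8 CPM in HWAT, the next highest (ratio 4.82, 3.58-6.64), and endothelial-like nuclei had 74.9 CPM in SWAT and 27.2 CPM in HWAT (2.76, 1.61-5.12). In SWAT, the Ccl8 level was 5.59% of the macrophage level in FAP-like, 3.81% in endothelial-like and 3.14% in adipocyte-like nuclei. The macrophage markers were at 2.35%, 2.77% and 1.88% of their macrophage level in those classes. In HWAT the gap was wider, with Ccl8 at 16.3% of the macrophage level in FAP-like and 24.1% in endothelial-like nuclei, and the markers at 3.69% and 3.73%. With the free-RNA profile subtracted, SWAT stood at 62.6 CPM in FAP-like and 40.7 CPM in adipocyte-like nuclei. In endothelial-like nuclei it then stood at 13.8 CPM in SWAT and 23.9 CPM in HWAT, so the order of these depots turned round. HWAT endothelial-like nuclei stood at 5.64 to 27.4 CPM over the alternatives. HWAT plasma cell-like nuclei had 92.6 CPM of Ccl8. Free RNA from macrophages was not separated from Ccl8 made in these cells.

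Ccl2 and Ccl7, the neighbouring genes for MCP-1 and MCP-3, share the receptor Ccr2 and were both found in macrophage-like and FAP-like nuclei. In macrophage-like nuclei Ccl2 stood at 91.3 CPM in SWAT (78.0-106), 76.6 CPM in HWAT (65.5-89.1), 57.5 CPM in EWAT (49.5-66.4), 36.0 CPM in MWAT (23.1-53.6) and 18.7 CPM in NWAT (13.8-24.9). The intervals of SWAT and HWAT overlapped, and SWAT exceeded NWAT by 4.87-fold (3.52-6.86). Ccl7 kept the same depot order, at 129 CPM in SWAT (113-146), 69.8 CPM in HWAT (59.2-81.8), 34.5 CPM in EWAT (28.4-41.5), 19.5 CPM in MWAT (10.4-33.3) and 14.4 CPM in NWAT (10.2-19.9). SWAT was 1.85-fold above HWAT and 3.74-fold above EWAT (2.97-4.72). Both genes were carried by few nuclei: 8.46% of SWAT macrophage-like nuclei held a Ccl2 UMI and 10.8% a Ccl7 UMI, while adipocyte-like nuclei of SWAT held a Ccl2 UMI in 0.426% and a Ccl7 UMI in 1.39%. The genes met in part of these nuclei. Of the Ccl2-positive macrophage-like nuclei, 47.3% in SWAT (44 of 93), 36.8% in HWAT (28 of 76), 9 of 30 in NWAT, 24.7% in EWAT (23 of 93) and 4.76% in MWAT (1 of 21) also held Ccl7.

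Within macrophages, the lipid-associated-like nuclei carried the most Ccl2. In SWAT they had 180 CPM, against 87.9 CPM in the Gas6 sub-cluster (ratio 2.05, 1.48-2.83), and in EWAT 115 CPM against 41.9 CPM (2.74, 1.96-3.85). The shares of nuclei with a Ccl2 UMI were 16.5% against 7.015% in SWAT, but closer in EWAT, at 7.51% against 5.40%. The intervals take each count as independent. Ccl7 was also higher in the lipid-associated-like nuclei of SWAT, with 229 CPM, against 130 CPM in the Gas6 sub-cluster (1.76, 1.33-2.31). In EWAT, Ccl7 stood at 30.6 CPM in lipid-associated-like nuclei and 52.7 CPM in the Gas6 sub-cluster (0.581, 0.352-0.929).

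FAP-like nuclei ordered the depots differently. Ccl2 stood there at 96.1 CPM in EWAT (82.7-111), 60.6 CPM in MWAT (46.1-78.1), 51.0 CPM in HWAT (33.0-75.3), 19.7 CPM in SWAT (14.0-27.0) and 14.5 CPM in NWAT (9.65-21.0). EWAT exceeded SWAT by 4.88-fold (3.44-7.08), where the macrophage values ran the other way. One EWAT nucleus held 43 of the 183 counts, and EWAT stood at 73.7 CPM without it and at 59.4 CPM with classes set per nucleus. Ccl7 was flatter, at 79.1 CPM in MWAT (62.4-98.8), 71.4 CPM in HWAT, 70.4 CPM in EWAT, 41.5 CPM in NWAT and 29.3 CPM in SWAT (22.3-37.9). With classes set per nucleus, Ccl7 stood at 49.6 CPM in MWAT and 36.8 CPM in HWAT. Within EWAT, Ccl2 stood at 252 CPM in 192 Dpp4-type FAPs, the interstitial progenitors, against 55.2 CPM in the main EWAT sub-cluster (4.56, 3.32-6.31). Only 6.25% of the Dpp4-type nuclei held a UMI, so their 104 counts came from few nuclei. The interval takes each count as independent and is too narrow for such clumped counts. The ratio was not computed without the nucleus of 43 counts. Of Ccl2-positive FAP-like nuclei in EWAT, 38.2% (13 of 34) also held Ccl7.

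**Figure D3:**
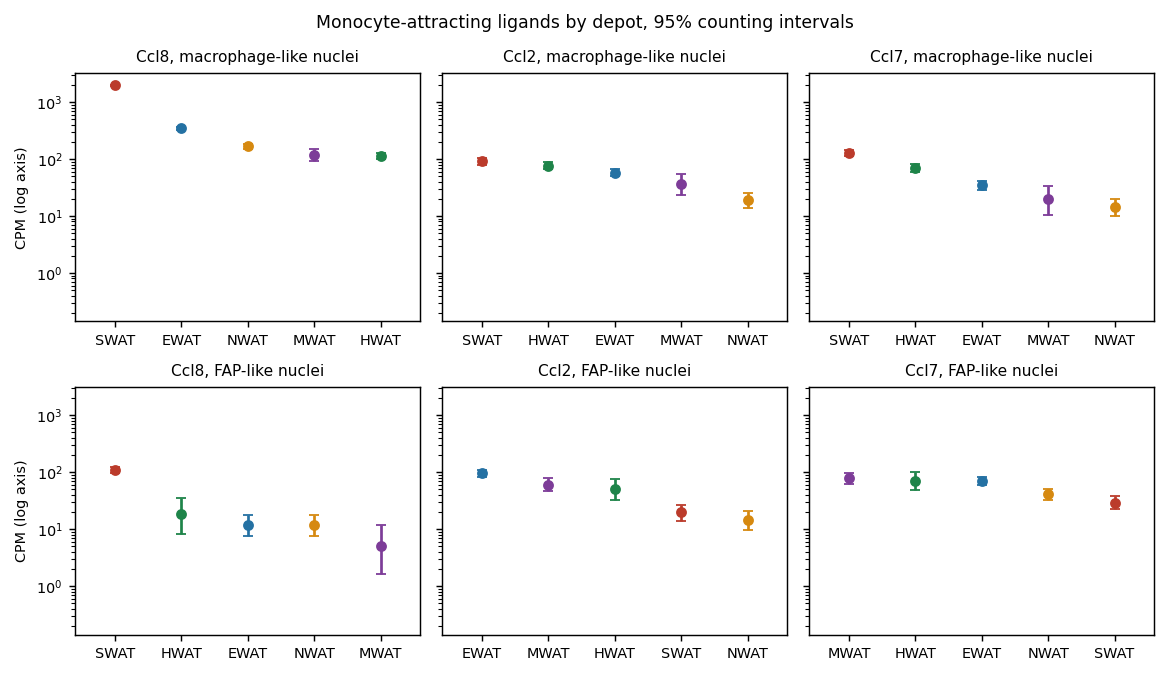
CPM on a log axis of Ccl8, Ccl2 and Ccl7 in macrophage-like nuclei (top) and FAP-like nuclei (bottom), 1 point per depot library ordered from high to low, with exact 95% Poisson intervals. SWAT led all 3 genes in macrophages (1964, 91.3 and 129 CPM), whereas in FAPs it led Ccl8 and was among the lowest for Ccl2 and Ccl7 (19.7 and 29.3 CPM).

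Dissection and dissociation can induce immediate early genes, and a list of 11 of them was therefore set beside these values. Its summed level in macrophage-like nuclei was 1386 CPM in HWAT, 958 CPM in SWAT, 517 CPM in MWAT, 482 CPM in EWAT and 323 CPM in NWAT, so the libraries with most macrophage Ccl2 and Ccl7 also had most of these transcripts. In FAP-like nuclei the sum was 2114 CPM in SWAT, 1261 CPM in HWAT, 696 CPM in MWAT, 649 CPM in EWAT and 325 CPM in NWAT, where SWAT was highest although its Ccl2 was low. A list of 11 interferon-response genes summed in macrophage-like nuclei to 588 CPM in SWAT, 459 CPM in HWAT, 363 CPM in NWAT, 330 CPM in MWAT and 244 CPM in EWAT, and 10 of 11 genes had a SWAT level above their average elsewhere. The part of either list in the chemokine values was not tested.

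Ccl11 marked the progenitors of every depot at nearly the same level. Ccl11 (eotaxin-1) made 7270 counts, of which 63.8% lay in FAP-like nuclei. In these nuclei it stood at 718 CPM in HWAT (645-798), 666 CPM in NWAT (630-703), 635 CPM in EWAT (600-672), 624 CPM in SWAT (590-660) and 572 CPM in MWAT (525-622). The 5 depots spanned 1.26-fold (1.10-1.44), and neighbours in this order had overlapping intervals. The even level rests on the clusters: where each nucleus took its class from its own markers, Ccl11 stood at 244 CPM in HWAT, 616 CPM in NWAT, 467 CPM in EWAT, 574 CPM in SWAT and 312 CPM in MWAT. A UMI was found in 64.0% of FAP-like nuclei in NWAT, 51.2% in EWAT, 48.7% in SWAT, 43.4% in HWAT and 37.0% in MWAT. Among nuclei with at least 1000 UMIs, thinned to that depth, the shares were 35.2% to 40.4%. The share in macrophage-like nuclei, which should lack the gene, was 0.886% to 4.20%. An unnamed cluster led by Notch3, Ndufa4l2 and Pdgfrb also held Ccl11, with 684 CPM in MWAT, 351 CPM in both EWAT and NWAT, and 121 CPM in SWAT.

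Within FAPs, Ccl11 was lower in Dpp4-type nuclei than in the main sub-cluster of the same depot. The values were 357 CPM against 808 CPM in NWAT (ratio 0.442, 0.367-0.529), 392 CPM against 781 CPM in EWAT (0.503, 0.423-0.594) and 431 CPM against 725 CPM in SWAT (0.595, 0.458-0.760). The 3 depots with 50 or more Dpp4-type nuclei thus ran the same way.

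Cxcl14, a homeostatic chemokine of epithelia and stroma, was as uneven among depots as Ccl11 was even. In FAP-like nuclei it stood at 165 CPM in SWAT (148-184), 77.3 CPM in NWAT (65.4-90.7), 40.4 CPM in EWAT (31.9-50.6), 9.24 CPM in MWAT (4.23-17.5) and 4.08 CPM in HWAT (0.494-14.7). The first 3 depots had intervals that did not overlap, whereas MWAT had 9 counts and HWAT 2 counts and could not be told apart. SWAT exceeded NWAT by 2.14-fold (1.76-2.61), EWAT by 4.09-fold (3.18-5.31) and MWAT by 17.9-fold (9.31-39.5). A UMI was present in 17.9% of SWAT FAP-like nuclei, 10.3% in NWAT, 5.12% in EWAT, 0.973% in MWAT and 0.590% in HWAT. Adipocyte-like nuclei held one in 1.20% of SWAT, 0.992% of MWAT and 0.112% to 0.273% of the other depots' nuclei, so the MWAT share in FAP-like nuclei is read as background. The median depth of FAP-like nuclei was 1089 to 2303 UMIs.

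The FAP sub-clusters split Cxcl14 further. In NWAT the Dpp4-type nuclei had 2.61 CPM (1 count), against 92.3 CPM in the main sub-cluster. In EWAT 192 Dpp4-type nuclei had 0 counts, which allows a level of up to 7.26 CPM (3 counts), against 60.2 CPM in the main sub-cluster. In SWAT the Dpp4-type nuclei had 127 CPM and the main sub-cluster 171 CPM, but the 20 counts of the Dpp4-type nuclei came from 2.30% of them. In MWAT the highest named classes were the one like interstitial cells of Cajal, which joins clusters of 396 and 109 nuclei, and smooth muscle. Nuclei like interstitial cells of Cajal had 255 CPM (219-297) with a UMI in 23.0% of 505 nuclei, smooth muscle-like nuclei had 101 CPM (91.9-111), and MWAT FAP-like nuclei had 9.24 CPM.

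**Figure D4:**
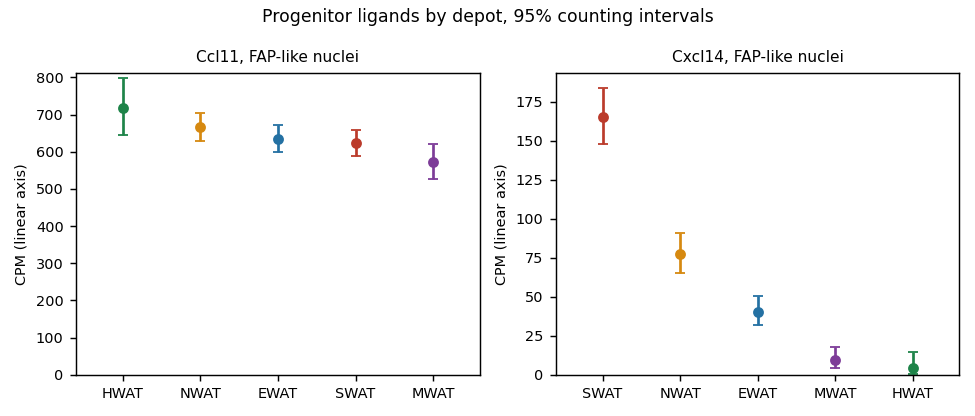
CPM on a linear axis of Ccl11 and Cxcl14 in nuclei of FAP-like clusters, 1 point per depot library ordered from high to low, with exact 95% Poisson intervals. Ccl11 lay between 572 and 718 CPM in all 5 libraries, whereas Cxcl14 ran between 165 CPM in SWAT and 4.08 CPM in HWAT.

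Cxcl16 was low and spread over several classes, with its highest levels in macrophage-like and mesothelial-like nuclei. It is a membrane-bound chemokine that can be shed and acts on Cxcr6 of T and NKT cells. In macrophage-like nuclei it stood at 64.4 CPM in HWAT (54.2-75.9), 42.4 CPM in SWAT (33.5-52.9), 42.0 CPM in MWAT (27.9-60.7), 34.2 CPM in EWAT (28.1-41.2) and 28.9 CPM in NWAT (22.7-36.3). HWAT was 1.52-fold above SWAT (1.14-2.03), and the other 4 overlapped with their neighbours. In mesothelial-like nuclei HWAT was again highest, at 46.8 CPM (41.8-52.2), with 34.6 CPM in EWAT, 34.0 CPM in NWAT and 26.0 CPM in MWAT (21.6-30.9). Endothelial-like nuclei had 15.04 CPM in SWAT to 29.1 CPM in HWAT, and FAP-like nuclei 7.19 CPM in MWAT to 28.6 CPM in HWAT. The endothelial and FAP levels were not separated in HWAT (ratio 1.02, 0.459-2.28), NWAT (1.26, 0.832-1.95) or SWAT (1.24, 0.745-2.12). EWAT epithelial-like nuclei had 34.1 CPM. Adipocyte-like nuclei had at most 5.01 CPM, in HWAT, and held a UMI in 0.379% to 1.01% of nuclei, against 4.43% to 9.65% of macrophage-like nuclei.

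Among endothelial-like nuclei Cxcl16 was higher in venous-like than in capillary-like ones. The levels were 49.5 CPM and 8.43 CPM in EWAT (ratio 5.87, 3.12-11.8) and 47.0 CPM and 18.6 CPM in NWAT (2.53, 1.49-4.33). In MWAT the ratio was 2.21 (0.563-9.17) and in SWAT the interval was 0.783-3.38, and both intervals include 1.

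Cxcl10 (IP-10), the interferon-inducible ligand of Cxcr3, was scarce and patchy. It made 1503 counts, of which 39.3% lay in adipocyte-like and 31.0% in mesothelial-like nuclei. In macrophage-like nuclei it stood at 50.3 CPM in HWAT (41.4-60.6), 12.5 CPM in SWAT (7.92-18.8), 10.5 CPM in NWAT (6.95-15.3), 3.00 CPM in MWAT (0.363-10.8) and 2.18 CPM in EWAT (0.874-4.48). HWAT lay above all others and was 4.03-fold above SWAT (2.55-6.61). Only 2.33% of HWAT macrophage-like nuclei held a UMI, and the most in 1 nucleus was 25 of 111 counts. In SWAT, EWAT, MWAT and NWAT a UMI was found in 0.355% to 0.909% of macrophage-like nuclei, and in 0.508% to 3.18% of adipocyte-like nuclei. Adipocyte-like nuclei hold much of the Cxcl10 and are deeper, so they give no background for this gene. Dendritic-like nuclei of HWAT had 167 CPM, against 38.9 CPM in the Marco sub-cluster (4.29, 2.75-6.61). The 35 dendritic-like counts came from 5.22% of 134 nuclei, and the interval is too narrow for such clumped counts. Without the dendritic-like sub-clusters HWAT macrophage-like nuclei stood at 38.2 CPM (30.1-47.9). With more doublets removed the HWAT level stood at 31.3 CPM.

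In endothelial-like nuclei HWAT also led, with 36.9 CPM on 19 counts and 7.16 CPM in EWAT, the next highest (5.15, 2.72-9.56). Only 6 of 382 endothelial-like nuclei in HWAT and 16 of 2338 in EWAT held a Cxcl10 UMI. The interval is too narrow for such clumped counts. Mesothelial-like nuclei had 35.2 CPM in EWAT (29.0-42.4), 33.0 CPM in HWAT (28.8-37.6), 20.1 CPM in NWAT (14.5-27.0) and 17.5 CPM in MWAT (13.9-21.6). EWAT and HWAT overlapped, as did NWAT and MWAT. Within HWAT mesothelium, 1 sub-cluster led by Dclk1, Csmd1, Gatm and Pdgfra carried several chemokines together. Its 797 nuclei had 107 CPM of Cxcl10, against 17.4 CPM in the largest HWAT mesothelial sub-cluster (6.17, 4.46-8.66). Ccl2 stood at 52.0 CPM against 12.2 CPM (4.27, 2.83-6.56) and Ccl7 at 30.4 CPM against 2.09 CPM (14.6, 6.19-41.7) in the same pair, and Cxcl1 at 16.9 CPM against 5.91 CPM (2.85, 1.48-5.63). Cxcl16 was 49.95 CPM against 37.2 CPM, a ratio of 1.34 whose interval of 0.984-1.82 includes 1. Pdgfra is a FAP marker, and where finer clusters (resolution 2) or each nucleus's own markers set the class, HWAT mesothelial-like nuclei had 11.3 CPM and 9.51 CPM of Cxcl10, against 33.0 CPM here. With more doublets removed (1.6% per 1000 nuclei) they had 13.9 CPM. With classes set per nucleus, Ccl2 in HWAT mesothelial-like nuclei stood at 9.03 CPM, against 20.3 CPM by cluster, Ccl7 at 3.33 CPM, against 10.4 CPM, and Cxcl1 at 3.804 CPM, against 6.42 CPM. Summed FAP markers in mesothelial-like nuclei stood at 53.7% to 77.8% of their FAP level, so the markers do not separate the pair of classes sharply.

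**Figure D5:**
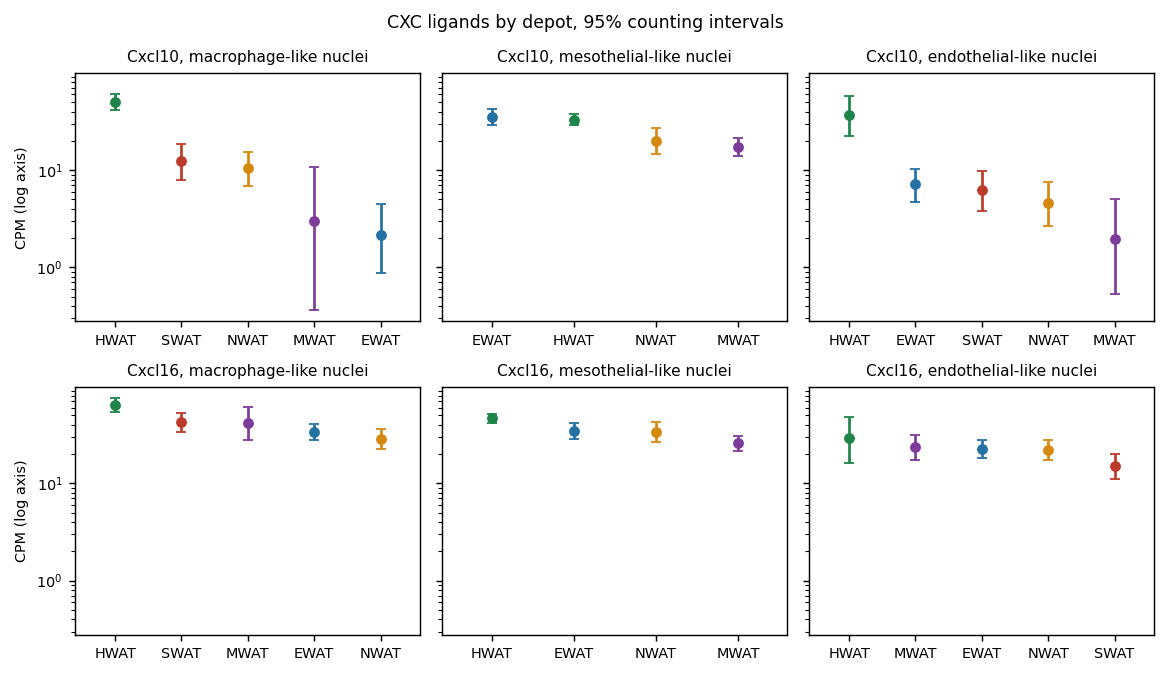
CPM on a log axis of Cxcl10 (top) and Cxcl16 (bottom) in macrophage-like, mesothelial-like and endothelial-like nuclei, 1 point per depot library ordered from high to low, with exact 95% Poisson intervals. For Cxcl10, HWAT led in macrophages (50.3 CPM) and endothelium (36.9 CPM, from 6 nuclei), and EWAT and HWAT overlapped in mesothelium. Cxcl16 lay between 15.04 and 64.4 CPM in all panels.

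Beside these HWAT values, 8 NF-kB target genes summed in macrophage-like nuclei to 820 CPM in HWAT, and to 310 to 337 CPM in the other 4 depots. Each of the 8 had a HWAT level above its average elsewhere. In mesothelial-like nuclei the 8 genes summed to 574 CPM in NWAT, 483 CPM in EWAT, 393 CPM in HWAT and 388 CPM in MWAT, where HWAT did not lead. The part of this list in the Cxcl10 and Cxcl1 values was not tested.

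Cxcl1 (KC), the neutrophil attractant that acts on Cxcr2, was the rarest member, with 367 counts. FAP-like nuclei had 30.6 CPM in HWAT (17.1-50.5), 10.5 CPM in EWAT (6.42-16.2), 7.26 CPM in NWAT, 6.16 CPM in MWAT and 6.07 CPM in SWAT. HWAT exceeded EWAT by 2.91-fold (1.39-5.99) on 15 counts. Over the alternatives HWAT stood at 17.5 to 46.4 CPM and EWAT at 8.60 to 16.8 CPM. Macrophage-like nuclei had 23.6 CPM in HWAT (17.6-30.9), 9.32 CPM in EWAT, 2.17 CPM in SWAT, 1.17 CPM in NWAT and 0 counts in MWAT, which allows up to 4.50 CPM (3 counts). The EWAT value rests on 1 nucleus with 26 of 30 counts. In HWAT, the sub-cluster led by Slpi and Alox15 had 90.4 CPM, against 20.4 CPM in the Marco sub-cluster (4.43, 2.40-7.98). The 20 counts of the Slpi and Alox15 sub-cluster came from 4.08% of its 98 nuclei. The interval takes each count as independent and is too narrow for such clumped counts. Cxcl2, a ligand of the same receptor, also led in HWAT macrophage-like nuclei, at 171 CPM (154-189), with 95.1 CPM in EWAT, 21.0 CPM in MWAT, 19.6 CPM in SWAT and 3.51 CPM in NWAT.

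Depot differences were counted over the 5 classes with most nuclei. A member was called highest in 1 depot where that library was 2-fold or more above the next. All 10 members had the 20 counts required in each class. In macrophage-like nuclei 4 of 10 members were called (Ccl8 in SWAT, Cxcl1 and Cxcl10 in HWAT, and Cxcl14 in SWAT), against 4.36% of all genes tested, and in FAP-like nuclei 3 (Ccl8 and Cxcl14 in SWAT, Cxcl1 in HWAT), against 4.99%. Mesothelial-like nuclei had 3 (Ccl7 and Cxcl1 in HWAT, Cxcl14 in MWAT), against 7.76%, endothelial-like nuclei 2 (Ccl8 in SWAT, Cxcl10 in HWAT), against 6.94%, and adipocyte-like nuclei 1 (Ccl8 in SWAT), against 7.99%. The ratio's interval lay above 1 for all of these except Cxcl14 in macrophage-like nuclei, which had 23 counts in SWAT. It lay above 2, the size of the call, for fewer. These were 2 calls in macrophage-like nuclei, 1 each in FAP-like, endothelial-like and adipocyte-like nuclei, and 0 in mesothelial-like nuclei. The Cxcl14 call in mesothelial-like nuclei rests on 0.975% of MWAT nuclei with a UMI, close to the 0.992% of MWAT adipocyte-like nuclei, and is read as background. The Cxcl10 call in endothelial-like nuclei rests on 6 HWAT nuclei with a UMI. Without the HWAT library the count was 5 in mesothelial-like, 2 in adipocyte-like and 1 in endothelial-like nuclei. The median ratio of highest to next depot was 1.68 for members and 1.15 for all genes in macrophage-like nuclei, 1.51 and 1.17 in mesothelial-like nuclei, and 1.31 and 1.18 in adipocyte-like nuclei.

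Calls of a lowest depot, 2-fold or more below the next lowest, rested mostly on few counts. There were 6 in endothelial-like nuclei (all genes 7.93%), 3 in mesothelial-like nuclei (10.1%), 2 in FAP-like nuclei (8.28%), 1 in macrophage-like nuclei (8.59%) and 0 in adipocyte-like nuclei (12.9%). The interval of the ratio lay below 1 for 2 of them, Ccl6 and Ccl8 in MWAT mesothelial-like nuclei, and without the HWAT library the macrophage count was 2. At the levels of these macrophage genes in mesothelium, carried-over RNA was not separated.

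The other chemokine ligands of the files, 28 genes of which 18 had 100 or more counts, gave the setting. In macrophage-like nuclei 14 of the 18 had 20 or more counts, and 3 were called highest in 1 depot, Ccl4 and Ccl5 in SWAT and Cxcl13 in HWAT. Of all genes 4.36% were called in this class. In mesothelial-like nuclei 6 of 13 were called (all genes 7.76%), namely Ccl5, Ccl19, Cxcl2, Cxcl12, Cxcl13 and Pf4. In FAP-like nuclei 3 of 10 were called (4.99%). In endothelial-like nuclei 4 of 14 were called (6.94%) and in adipocyte-like nuclei 4 of 17 (7.99%). Outside macrophage-like nuclei each of these calls was in HWAT. Macrophage-like nuclei held 70.9% of all Pf4 and 89.0% of all Cxcl2 counts, and T or NK cell-like nuclei 50.8% of Ccl5 counts. Carried-over RNA was not separated from the calls of these genes in other classes. Cxcl13, the B cell attractant, reached 6021 CPM in HWAT macrophage-like nuclei (5919-6124), with 387 CPM in MWAT, 125 CPM in NWAT, 11.4 CPM in SWAT and 3.11 CPM in EWAT, and the HWAT library also held 2323 B cell-like nuclei. In macrophage-like nuclei Pf4 was even, at 2299 CPM in HWAT, 2264 CPM in MWAT, 2223 CPM in SWAT, 1619 CPM in EWAT and 1464 CPM in NWAT. Ccl24 (eotaxin-2), a second Ccr3 ligand beside Ccl11, was a macrophage transcript, with 500 CPM in NWAT (473-528) and 203 to 273 CPM in the other depots. Cxcl9, a Cxcr3 ligand like Cxcl10, lay in endothelial-like nuclei instead, at 308 CPM in SWAT, 260 CPM in NWAT, 190 CPM in HWAT, 159 CPM in EWAT and 22.7 CPM in MWAT.

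By mean CPM over depots, the receptor transcripts Ccr1, Ccr2, Cxcr3 and Cxcr6 were highest in macrophage-like or T or NK cell-like nuclei. Others were highest outside leukocytes, with Ackr1 and Ccrl2 in endothelial-like, Ackr2 and Ackr4 in lymphatic endothelial-like and Ackr3 in FAP-like nuclei. Of 23 receptor genes, atypical ones included, 16 had 100 or more counts. In macrophage-like nuclei 2 of 11 measured receptors were called highest in 1 depot, Ackr4 in MWAT and Cx3cr1 in HWAT, against 4.36% of all genes. In mesothelial-like nuclei 1 of 7 was called, Ccr2 in EWAT, against 7.76%. No receptor was called among 6 in FAP-like, 7 in endothelial-like and 10 in adipocyte-like nuclei. Ccr2, the receptor of Ccl2 and Ccl7, stood in macrophage-like nuclei at 375 CPM in MWAT, 301 CPM in EWAT, 291 CPM in NWAT, 217 CPM in SWAT and 125 CPM in HWAT, so SWAT and HWAT, highest for both ligands, were lowest for the receptor. Ccr1 was highest in HWAT macrophage-like nuclei, at 167 CPM, and stood at 70.7 to 144 CPM in the other depots. In T or NK cell-like nuclei Cxcr6, the Cxcl16 receptor, averaged 254 CPM over depots and Cxcr3, the Cxcl10 receptor, 92.3 CPM. Ackr1, an atypical receptor that binds inflammatory chemokines on venules, stood in endothelial-like nuclei at 87.3 CPM in HWAT, 83.7 CPM in SWAT, 39.5 CPM in MWAT, 37.8 CPM in NWAT and 25.3 CPM in EWAT. The Ccl11 receptor Ccr3 had 17 counts and the Cxcl1 receptor Cxcr2 had 30 counts over all nuclei, and Cxcr1 had 0.

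The genes most like each member were taken by Pearson correlation of log2(CPM + 10) over 43 class-by-depot sums, which share libraries and depth and are not independent. The first for Ccl6 was C1qc (r 0.97), for Ccl9 Adgre1 (0.98), for Ccl11 Dpt (0.92) and for Ccl7 Ifi207 (0.88). For Cxcl14 it was Dkk2 (0.82), for Cxcl16 Tnfsf13 (0.81), for Cxcl1 Pi16 (0.74) and for Cxcl10 Cadm4 (0.60). For Ccl2 it was Gm17268 (0.81), the gene that overlaps it on the other strand, and Ccl7 was the third (0.73).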

How the data were processed

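Nuclei of each depot were sequenced as 1 10x 3' v3 library. The authors deposited UMI counts per gene and barcode, and the file headers name Cell Ranger 6.0.1. The submitters' processing notes name mm10, and neither the annotation release nor the use of strand is given in the sources used here. Nuclei with at least 200 genes and at most 10% mitochondrial counts were kept, and doublets were removed at 0.8% per 1000 nuclei. Nuclei were clustered with igraph 0.11.9 and leidenalg 0.10.2 on 2000 variable genes and 40 components (20 neighbours, resolution 1.0). Variable genes, components and neighbours were computed with NumPy and SciPy. All chemokine ligand and receptor genes were left out, and clusters were named from marker lists. Classes needed 50 nuclei in a library. Counts were summed per class and library with NumPy 2.4.6 and pandas 2.3.3 and given as CPM with exact 95% Poisson intervals, and shares with Clopper-Pearson intervals (SciPy 1.17.1). Ratios carry exact conditional binomial intervals. All of these cover counting error only. Total counts ranged between 23313545 and 43855063 UMIs per library. With 1 library per depot no p-value was computed. A depot was called highest or lowest at 2-fold from the next, with 20 counts in all. The members and lists were chosen with earlier results of these data known. Genes outside the members are named where they were the 3 most correlated of the genes with 100 counts or belong to the ligand and receptor lists. The sums and intervals were tested on simulated data.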

Additional observations from a re-analysis of the deposited data

How the results depend on the processing

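With 1 library per depot the limits are depth and the single pool. Classes of few nuclei and genes of few counts (Cxcl1, Cxcl10, and Cxcl14 outside SWAT and NWAT) carry wide intervals, and counts from 1 nucleus can set a level. Ccl8 in SWAT macrophage-like nuclei stayed between 1690 and 2049 CPM under all alternatives, and Cxcl14 in SWAT FAP-like nuclei between 151 and 173 CPM. Members highest in 1 depot numbered 3 in mesothelial-like nuclei and 1 at clustering resolution 2, 0 with a minimum of 100 counts and 5 without the peri-heart library. In adipocyte-like nuclei there was 1, with 3 at a minimum of 500 genes and 2 with a class per nucleus, TMM scaling, the free-RNA profile subtracted or the peri-heart library left out. In FAP-like nuclei there were 3, with 5 for a class per nucleus. In endothelial-like nuclei there were 2, with 1 after free-RNA subtraction, with a minimum of 100 counts or without the peri-heart library. In macrophage-like nuclei there were 4, with 2 at a minimum of 100 counts. Members lowest in 1 depot numbered 0 in adipocyte-like nuclei and 1 at resolution 2, without doublet removal, with doublets at 1.6% per 1000, at most 2% mitochondrial counts, a class per nucleus, the mean of each nucleus's CPM or free-RNA subtraction. In FAP-like nuclei there were 2, with 1 under doublets at 1.6%, 500 genes, 2% mitochondrial, free-RNA subtraction and 100 counts. In endothelial-like nuclei there were 6, with 2 without doublet removal and 1 at 100 counts. In macrophage-like nuclei there was 1, with 2 without the peri-heart library. Members highest in FAP-like nuclei numbered 3, with 1 for a class per nucleus. The causes were not tested. Ccl7 moved to macrophage-like nuclei with a class per nucleus, with doublets at 1.6% and with the mean of each nucleus's CPM, Cxcl1 to pericyte-like nuclei with a class per nucleus and at resolution 2 and to the Notch3 cluster where that was a class, and Cxcl14 to FAP-like nuclei without doublet removal and at resolutions 0.5 and 2. The class like interstitial cells of Cajal held 505 nuclei in the main run, 212 at resolution 0.5 and 109 at resolution 2. Without doublet removal no cluster took that name. With a class per nucleus Cxcl14 moved to cardiomyocyte-like and Cxcl10 to skeletal muscle-like nuclei. Ccl2 moved to macrophage-like nuclei with doublets at 1.6%, the mean of each nucleus's CPM, the median over depots and without 1 EWAT nucleus. Members highest in macrophage-like nuclei numbered 4 to 6 and in FAP-like nuclei 1 to 4 over these settings. Of 240 levels, those outside their main interval numbered 81 after free-RNA subtraction, 57 with a class per nucleus, 37 with the mean of each nucleus's CPM and 35 with doublets at 1.6%, with fewer under each of the others. Thinned shares moved for 114 of 240 without thinning and for 129 at 500 UMIs. The comparisons without the peri-heart library, without the dendritic-like sub-clusters, with the median over depots, with the Notch3 cluster as a class and without 1 EWAT nucleus were chosen after seeing the data. No paired analysis was possible because each depot has 1 library.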
